A study of Bos taurus with 9 samples.

Results

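Aggrecan and the genes that build glycosaminoglycan chains were examined in cultured bovine cells from the nucleus pulposus, the soft centre of an intervertebral disc, without and with added salt. The set was a list of 8 genes: the large proteoglycans ACAN (aggrecan) and VCAN (versican), the link protein HAPLN1, the hyaluronan synthase HAS2, the precursor enzyme UGDH, and the chain enzymes CHSY1, XYLT1 and CSGALNACT1. Members were the probe sets that the platform annotation gives to only 1 of these symbols. That rule found 14 of the 24016 probe sets outside the manufacturer's controls, for 6 of the 8 genes. XYLT1 and CSGALNACT1 had none by this rule and were not analysed here. Of the 14 probe sets, 12 passed a filter on dim signals (a mean at or above the 25th percentile of all probe sets) and at least 1 of them belonged to each of the 6 genes.

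Aggrecan is a core protein that carries many chondroitin sulfate and keratan sulfate chains, and its fixed negative charge draws water into the disc. Many aggrecan molecules bind along 1 hyaluronan strand, and link protein locks each of them in place. The chains are built in the Golgi from nucleotide sugars. UGDH makes UDP-glucuronic acid, which both hyaluronan and chondroitin sulfate need. Xylosyltransferases start a chain on the core protein, CSGALNACT enzymes add the first chondroitin sugar and CHSY1 extends the polymer, whereas HAS2 spins hyaluronan at the plasma membrane. Disc cells live in a matrix whose osmolality changes with load, and proteoglycan content sets that osmolality.

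The cells came from caudal discs of young calves and were cultured in DMEM with fetal bovine serum. They were left untreated (3 arrays), or salt was added to a final 500 mOsm/kg for 5 h (3 arrays) or 24 h (3 arrays). The labels number the biological replicates 1 to 3 in each group without naming animals. A p-value here therefore measures how far these cultures vary. No time is given for the controls, which are the same 3 arrays in each comparison with control, so changes with salt and with time in culture cannot be told apart. RNA was measured on 1-colour Affymetrix arrays, and values are intensities made by the authors with PLIER, a summary of the probes in a set. In bulk RNA, fewer cells of a type and less RNA per cell cannot be told apart.

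Arrays with the same replicate number varied together. The correlation of their deviations from the group means, over 18012 tested probe sets, was between 0.56 and 0.90 for the 9 same-numbered pairs and between -0.78 and 0.55 for the 18 others. Among the others, arrays numbered 1 and 2 correlated with each other at 0.31 to 0.55. Those that set number 3 against another number were all negative. The contrast therefore comes mostly from number 3, and the pairing within numbers 1 and 2 is less clearly shown. Deviations from a group mean cancel out within the group, so positive values for same-numbered pairs force negative ones among the others. The size of the contrast is thus partly fixed by the centring on group means. The 3 arrays numbered 3 stood apart from the other 6 on the first principal component, with scores of 50.8 to 68.1 against -42.3 to -18.0. Replicate pairs are therefore given for every gene. The limma fit over all probe sets is given without the pairs, and also with the replicate number as a block where that changes a call. Changes are on the log2(intensity + 16) scale, ± SE, and calls use Benjamini-Hochberg adjustment over all 18012 probe sets with a threshold of 0.05. Array medians ran from 67.1 to 84.5 intensity units, and the number of arrays limits the precision. As a sign of RNA length, actin probes at the 3' end exceeded those at the 5' end by a log2 value between 2.37 and 3.31, with the highest value on the 24 h array numbered 3. For GAPDH probes the same value was between -0.178 and 0.057, and 0.021 on that array, so the 2 controls differed. The part of RNA length in the results was not tested.

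Of 12 nucleus pulposus markers, 6 had a probe set of their own and 4 of these were above the filter, namely ACAN, COL2A1, KRT18 and CDH2. The keratins KRT8 and KRT19 were below the filter, with KRT19 between 2.1 and 13.6 on all 9 arrays. Type II collagen, COL2A1, was at 329.7, 176.8 and 40.0 on control arrays 1, 2 and 3, so the array numbered 3 was the lowest. At 24 h COL2A1 stood at -0.385, CDH2 at -0.242 and KRT18 at -0.164, none called with or without the block. ACAN was thus the only tested marker of this list with a change above control. Skeletal muscle, leukocyte and annulus marker lists moved with time in salt in part. The summed intensity of the 3 measured muscle markers was 887 to 1076 in control, 1132 to 3407 at 5 h and 2111 to 3470 at 24 h, and CKM, which makes up most of that sum, was the 1 of 3 that rose at 24 h. ACTA1 stood at -0.60 and fell with the block (limma adjusted p = 0.0023), and TNNT3 stood at -0.16. That of the 4 leukocyte markers was 164 to 171, 160 to 170 and 345 to 396, and CD14 was the 1 of 4 that rose, while the defining marker PTPRC had a mean of 14.6 in control and was not called. That of the 6 annulus and tendon-type fibroblast markers was 11280 to 17880, 10460 to 13880 and 13380 to 17190, and COL12A1 and THY1 rose among 4 tested. The other two, COL1A1 (-0.32) and COL1A2 (-0.22), fell with the block (limma adjusted p = 0.046 and 0.026), while TNMD (4.87 in control) and SFRP2 (8.77) were below the filter. The part of such cells in the results was not tested.

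After 24 h in salt, the precursor enzyme UGDH, the chondroitin polymerase CHSY1 and the hyaluronan synthase HAS2 fell by 0.73 to 0.96 on the log2 scale. Aggrecan had a log2 change of 1.35 ± 0.56 in the other direction, which was not called without the pairs and was called with them. Without the block, 0 of the 6 genes rose and 3 fell, a share of 50% beside 8.61% of all tested probe sets called in either direction (4.28% higher and 4.32% lower). Counted over probe sets, 3 of 12 fell, or 25%. With the replicate block, 2 rose (ACAN and VCAN) and 4 fell (HAPLN1 besides the other 3), beside 35.8% of all tested probe sets (18.3% higher and 17.5% lower). Between 5 h and 24 h, 0 rose and 3 fell (HAS2, UGDH and CHSY1) beside 14.2% of all tested probe sets (8.01% higher and 6.15% lower), and 2 rose and 4 fell with the block beside 43.8% (24.2% higher and 19.6% lower). At 24 h the groups did not overlap for 4 of the 6 genes against control, beside 27.3% of all tested probe sets, and for 4 of the 6 against 5 h, beside 32.4%. The median change against control of the 6 genes was -0.59, and that of all tested probe sets 0.023. At 5 h none of the 6 genes was called in limma with or without the block, beside 0.483% (0.233% higher and 0.25% lower) and 5.86% (2.45% higher and 3.41% lower) of all tested probe sets. The members were picked with results of these arrays known, so these shares describe them and test nothing.

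**Figure D1:**
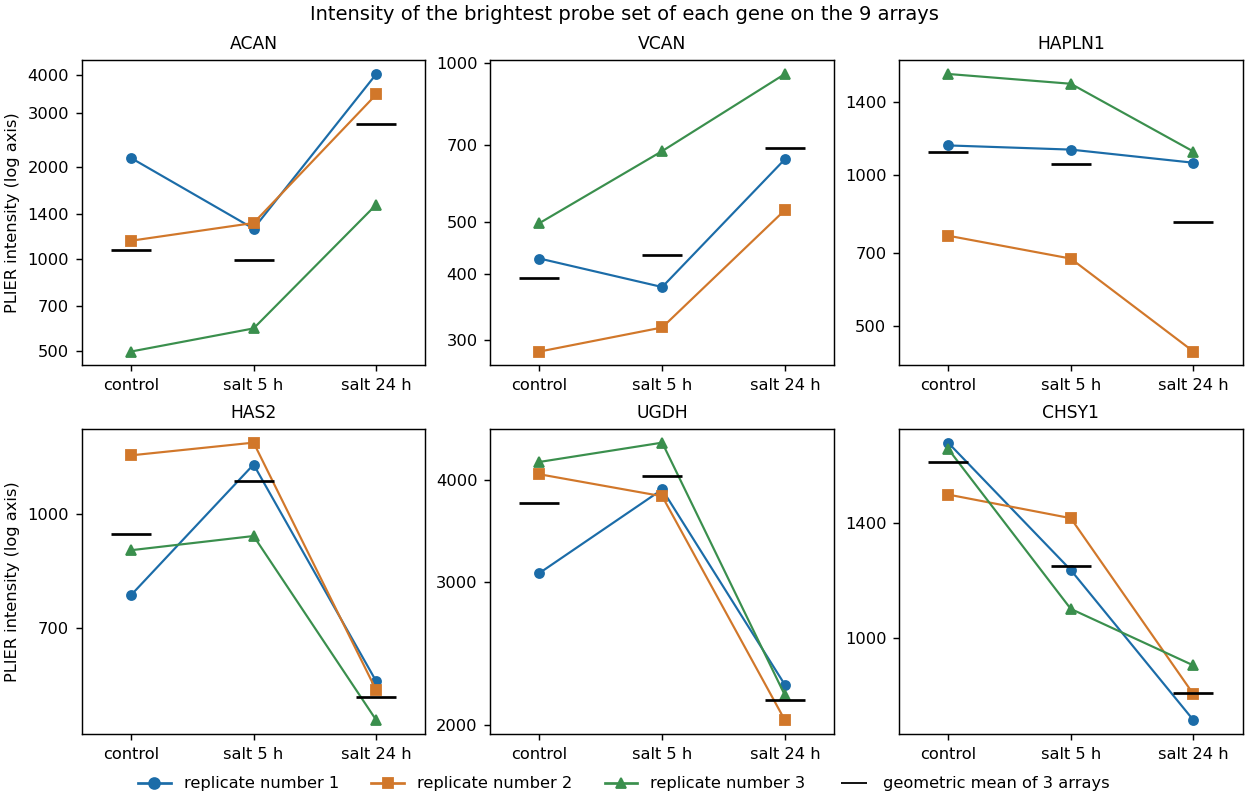
PLIER intensity (log axis) of the brightest probe set of 6 genes in control, salt 5 h and salt 24 h; each line joins the 3 arrays of a replicate number and black bars are geometric means. Every line ends at 24 h above its control point for ACAN and VCAN and below it for HAPLN1, HAS2, UGDH and CHSY1, while the ACAN control points spread from 497 to 2139.

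Aggrecan was measured by the probe set Bt.4953.1.S1_at. Its intensity was 2139, 1146 and 497 on control arrays 1, 2 and 3, a 4.30-fold spread between untreated cultures. At 5 h it was 1255.5, 1310.2 and 592. At 24 h it was 4026, 3452.5 and 1506. The 24 h and control groups overlapped, because the lowest 24 h array (number 3) lay below the highest control array (number 1), and all 5 h arrays lay within the range of the control arrays. All 24 h arrays lay above all 5 h arrays. The array numbered 3 was the lowest of its group at each time, and COL2A1 had the same order in control.

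Within replicate numbers the 24 h arrays were 1.88, 3.01 and 3.03 times their control, so all 3 pairs went up; 62.8% of all tested probe sets had their 3 pairs in 1 direction, up or down. The fitted change was 1.35 ± 0.56 without the block (limma adjusted p = 0.19) and 1.35 ± 0.17 with it (adjusted p = 0.00041). Between 5 h and 24 h the ratios were 3.21, 2.64 and 2.54, a fitted change of 1.46 ± 0.56 (adjusted p = 0.12, and 0.00020 with the block). At 5 h the pairs did not go 1 way, with ratios to control of 0.587, 1.14 and 1.19 (log2 change -0.11 ± 0.56, limma adjusted p = 0.9998). The blocked call at 24 h was kept without the arrays of any 1 replicate number, with changes of 1.24 to 1.57. In the fit without the block, leaving out 1 array gave changes from 0.81 (without control replicate 3) to 1.84 (without control replicate 1), none of them called.

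A dimmer ACAN probe set, Bt.29859.1.S1_at, had the same direction in each pair at 24 h. It stood at 131.2, 101.5 and 26.5 in control, at 71.9, 121.1 and 39.7 at 5 h and at 349.6, 406.4 and 81.1 at 24 h. The 24 h arrays were 2.66, 4.0 and 3.06 times their paired control, with a log2 change of 1.45 ± 0.65 (limma adjusted p = 0.22, and 0.0013 with the block). Unlike on the brightest probe set, 24 h and 5 h arrays overlapped, and the array numbered 2 was the highest at 24 h. Its partner on the annotation, Bt.29859.1.A1_at, was at 0 to 4.0 on all arrays, below the filter, and carries no information on ACAN.

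Versican, a hyaluronan-binding proteoglycan of more loosely packed matrix, had 3 probe sets that did not tell the same story. The brightest, Bt.2129.2.S1_at, was at 427.2, 284.9 and 498.4 in control, at 377.3, 316.4 and 681.9 at 5 h and at 658.2, 527.5 and 954 at 24 h. All 24 h arrays lay above all control arrays, as held in the higher direction for 13.9% of all tested probe sets. The change at 24 h was 0.79 ± 0.34 (limma adjusted p = 0.19, and 0.0012 with the block), with ratios to the paired control of 1.54, 1.85 and 1.91.

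The second VCAN probe set, Bt.5395.1.S1_a_at, moved by nearly the same amount, 0.77 ± 0.51 (limma adjusted p = 0.43, and 0.0041 with the block), but placed the array numbered 3 differently. On it the array numbered 3 was the lowest of each group, at 151.8 in control against 565 and 321.6 on arrays 1 and 2, where the brightest probe set had array 3 as the highest. The third, Bt.2129.1.S1_at, stood at 478.2, 268.6 and 471.6 in control and at 335.2, 297.3 and 588.2 at 24 h. Its change was -0.015 ± 0.37 (limma adjusted p = 0.99, and 0.96 with the block), and its pairs went in different directions. In every pair the brightest probe set had changed more at 24 h than the third, by 1.10, 0.71 and 0.61 on the log2 scale. With 3 pairs an exact two-sided sign-flip permutation test cannot give a p below 0.25.

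**Figure D2:**
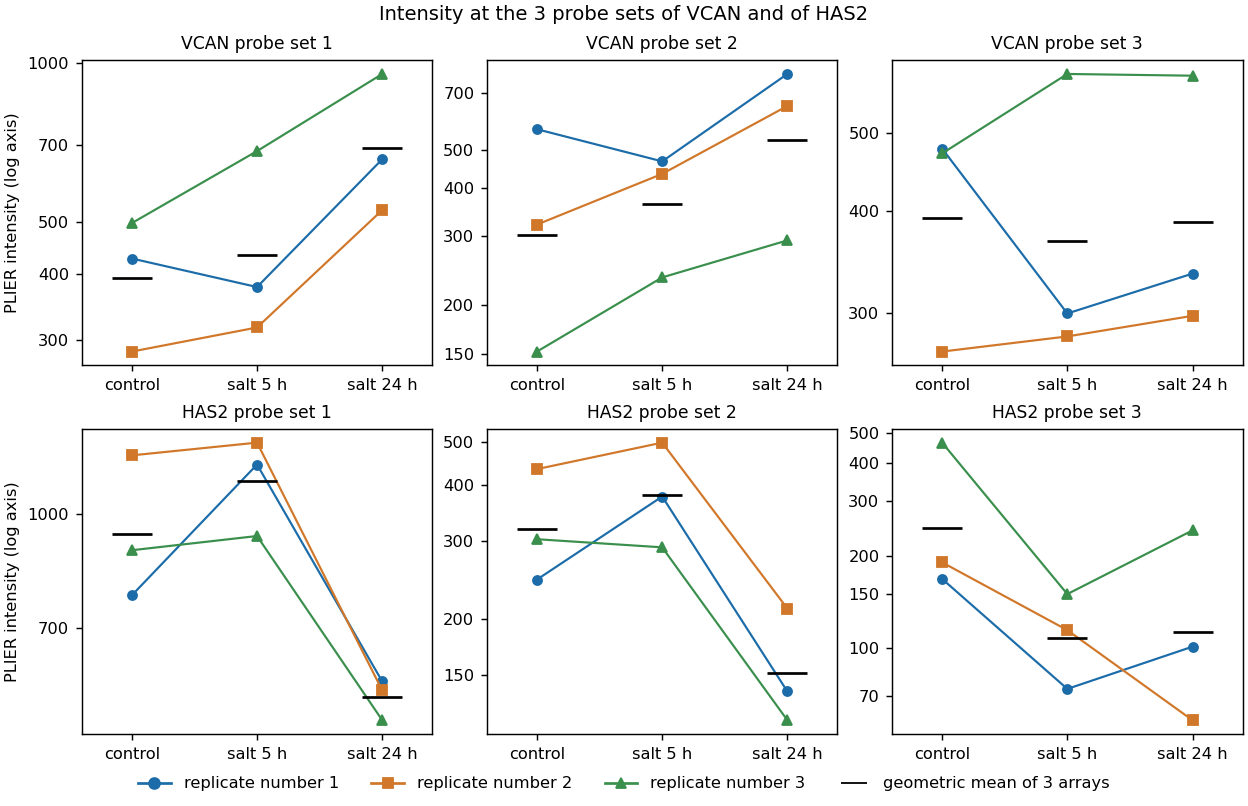
PLIER intensity (log axis) at the 3 probe sets of VCAN (top) and HAS2 (bottom) in control, salt 5 h and salt 24 h; lines join the arrays of a replicate number and black bars are geometric means of 3 arrays. Replicate number 3 is the highest line at VCAN probe sets 1 and 3 at 5 h and 24 h and the lowest at probe set 2, and HAS2 probe set 3 is lower at 5 h than in control in every pair.

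Link protein, HAPLN1, which holds aggrecan and versican on hyaluronan, had 1 probe set, Bt.30.1.S1_at. It was at 1145, 757.1 and 1588.6 in control, at 1123.3, 681.7 and 1518.9 at 5 h and at 1057.6, 445.2 and 1113.2 at 24 h. The groups overlapped, and in each group the array numbered 2 was the lowest and the array numbered 3 the highest. In contrast to ACAN, array 3 was therefore not low here. The 24 h arrays were 0.924, 0.588 and 0.701 times their control. The change was -0.46 ± 0.43 (limma adjusted p = 0.62), and HAPLN1 fell with the block (-0.46 ± 0.12, adjusted p = 0.016). That call ended without the arrays numbered 2 (-0.31, adjusted p = 0.11) or 3 (-0.43, adjusted p = 0.14). Without the block, leaving out 1 array gave 24 h changes from -0.73 to -0.037, the last without 24 h replicate 2.

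HAS2, the main hyaluronan synthase of many connective tissue cells, was read by 3 probe sets. On the brightest, Bt.20289.1.S1_at, the values were 775, 1204.2 and 893.2 in control and 1170, 1253.5 and 934.1 at 5 h. At 24 h they were 590.8, 574.4 and 522.9. All 24 h arrays lay below all control and all 5 h arrays, whereas control and 5 h arrays overlapped. The gene fell by 0.73 ± 0.19 on the log2 scale against control (limma adjusted p = 0.047) and by 0.96 ± 0.19 against 5 h (adjusted p = 0.013). The call against control was marginal: it ended in 7 of 9 refits with 1 array left out, with adjusted p up to 0.15 (without control replicate 2). It also ended with no filter on dim probe sets (0.058), with only the 6 arrays compared (0.082) and without the intensity trend (0.054), and was kept at 0.0024 with the replicate block. Against 5 h it ended only without 5 h replicate 1 (adjusted p = 0.058).

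The second HAS2 probe set, Bt.12927.2.S1_at, agreed in direction, at 245.5, 434.1 and 302.3 in control against 137.8, 211.4 and 118.8 at 24 h (-0.997 ± 0.29, limma adjusted p = 0.070, and 0.00056 with the block). The third, Bt.12927.1.S1_at, was lower at 5 h already. It was at 167.9, 190 and 464.9 in control, at 73.8, 114.5 and 149.9 at 5 h and at 101.2, 58.4 and 241.3 at 24 h. Between 5 h and 24 h it did not fall further (0.069 ± 0.51, limma adjusted p = 0.96, and 0.84 with the block), unlike the brightest probe set. Its 5 h change was -1.08 ± 0.51 (limma adjusted p = 0.76, and 0.028 with the block), the only 1 of the 12 probe sets called at 5 h with the block, 8.33% beside 5.86% of all tested probe sets. In the 3 pairs the brightest probe set stood above it in 5 h change by 1.62, 0.72 and 1.60 on the log2 scale. The other two HAS2 probe sets were not called at 5 h, and the mean of the 3 probe sets gave -0.20 at 5 h (limma adjusted p = 0.9998).

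UGDH, UDP-glucose dehydrogenase, had 1 probe set, Bt.5538.1.S1_at. Its intensity was 3075, 4065 and 4209 in control, 3894.5, 3820.5 and 4446 at 5 h, and 2241, 2028 and 2176 at 24 h. The 24 h arrays stood apart below all others, and control and 5 h arrays overlapped. UGDH fell by 0.80 ± 0.13 on the log2 scale against control (limma adjusted p = 0.013) and by 0.91 ± 0.13 against 5 h (adjusted p = 0.0053). The 24 h arrays were 0.729, 0.499 and 0.517 times their paired control. The call against control ended only without control replicate 2 (adjusted p = 0.056), and that against 5 h was kept in all 9 refits that left out 1 array.

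CHSY1, chondroitin sulfate synthase, was read best by Bt.17704.1.S1_at, at 1774, 1524 and 1743 in control, 1221.5, 1422 and 1090.0 at 5 h and 786.6, 848.7 and 923.5 at 24 h. The groups did not overlap at any step, and the order was control, then 5 h, then 24 h in all 3 replicate numbers. Groups stood apart in this direction for 6.60% of tested probe sets at 5 h and 13.5% at 24 h. The 5 h change of -0.43 ± 0.14 was not called (limma adjusted p = 0.36, and 0.073 with the block). At 24 h CHSY1 fell by 0.96 ± 0.14 against control (adjusted p = 0.0072) and by 0.53 ± 0.14 against 5 h (adjusted p = 0.035). The call against control was kept in all 9 refits that left out 1 array, and that against 5 h in 3 of the 9 refits, with adjusted p up to 0.13 (without 24 h replicate 1). The call against 5 h also ended with quantile normalization (0.054), with only the 6 arrays compared (0.071) and with the mean of the probe sets (0.58), and was kept at 0.0063 with the replicate block.

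A much dimmer CHSY1 probe set, Bt.13061.1.S1_at, moved the same way in each pair at 24 h but depended on the culture. It was at 158.5, 141.7 and 15.7 in control, a 10.1-fold spread, and at 76, 78.2 and 2.6 at 24 h. Its change was -0.81 ± 0.90 (limma adjusted p = 0.69, and 0.0050 with the block). Averaging it with the brightest and with Bt.13061.1.A1_at, which was below the filter at 9.3 to 18.2, gave a 24 h change of -0.61 that was not called (adjusted p = 0.33). The CHSY1 call therefore rests on 1 probe set when pairs are not used.

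**Figure D3:**
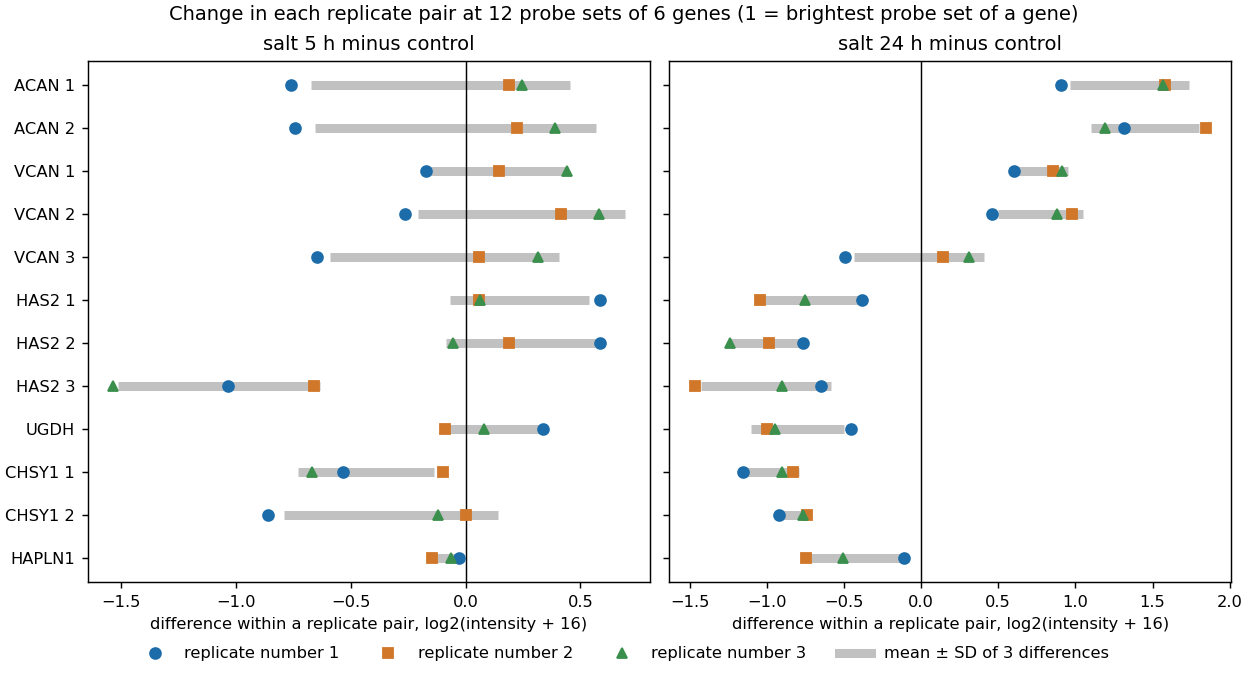
Difference in log2(intensity + 16) between same-numbered arrays at 12 probe sets of 6 genes, salt 5 h minus control (left) and salt 24 h minus control (right); symbols are replicate numbers 1 to 3 and grey bars are mean ± SD of 3 differences. At 24 h, 11 of 12 probe sets have all 3 pairs on 1 side of 0, the exception being VCAN probe set 3; at 5 h 4 of 12 do.

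All 3 pairs went the same way for 11 of the 12 probe sets at 24 h and for 4 of the 12 at 5 h. Over all tested probe sets that held for 62.8% at 24 h and 40.6% at 5 h. Between 5 h and 24 h it held for 10 of the 12, beside 65.1% of all tested probe sets. In pair 1, ACAN, VCAN and CHSY1 were lower at 5 h than in control while HAS2 and UGDH were higher, on the brightest probe sets. Pairs 2 and 3 had ACAN and VCAN a little above control at 5 h. In the fit without the block, leaving out control replicate 1 gave 5 h changes of 0.39 for ACAN and -0.032 for UGDH, against -0.11 and 0.11 with it. That refit keeps 5 h replicate 1, so it does not show which array made the pattern of pair 1.

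The 6 genes differed in how much of their variation went with condition and how much with replicate number. For CHSY1 and UGDH, condition took 91.7% and 90.2% of the sum of squares over the 9 arrays on the brightest probe set, and replicate number 0.127% and 3.72%. For HAS2 the shares were 82.7% and 9.12%. ACAN split almost evenly, at 49.1% and 46.7%, and so did the brightest VCAN probe set, at 45.1% and 50.8%. HAPLN1 went mostly with replicate number, at 82.1%, with 13.5% for condition. The share left over was 8.14% or less for these 6 probe sets. On the brightest probe sets the enzymes that fell without the block had the smaller replicate shares. The structural components were called only with the block. Shares and calls come from the same 9 values, and the fit without the block counts the replicate share as spread, so one does not explain the other. On dimmer probe sets replicate number took 89.2% for CHSY1 (Bt.13061.1.S1_at) and 47.4% for HAS2 (Bt.12927.1.S1_at). These shares are descriptions with no test.

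**Figure D4:**
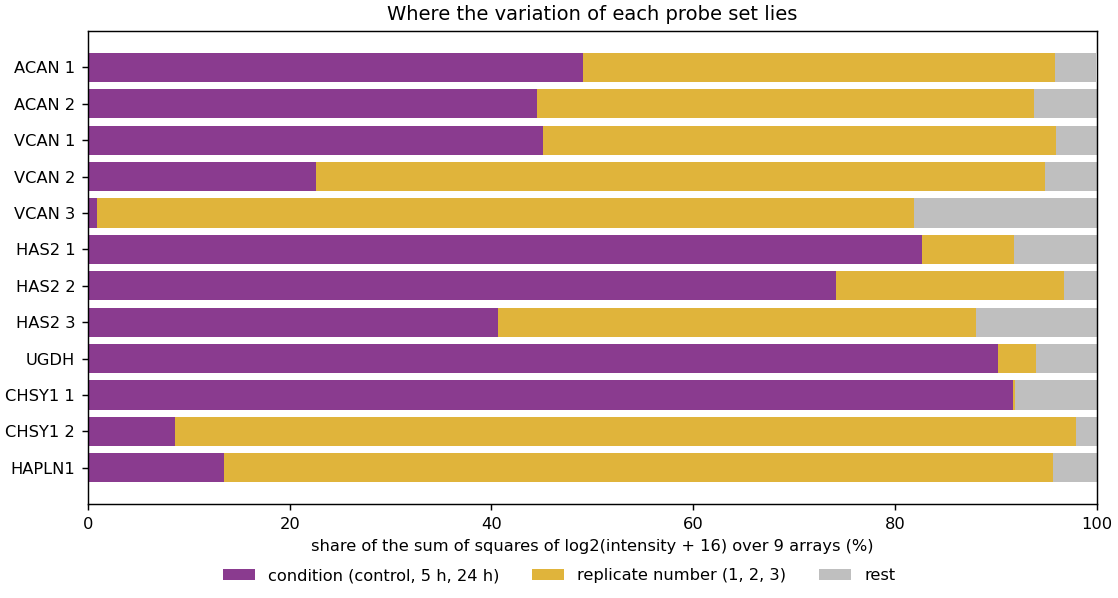
Share (%) of the sum of squares of log2(intensity + 16) over 9 arrays that goes with condition, with replicate number and with neither, for the 12 probe sets above the filter (1 is the brightest of a gene). Condition takes 82.7% to 91.7% for the brightest HAS2, UGDH and CHSY1 probe sets, and replicate number takes 82.1% for HAPLN1 and 89.2% for CHSY1 probe set 2.

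Aggrecan and the enzymes changed unequally within each pair. At 24 h against control the log2 change of ACAN exceeded that of UGDH by 1.36, 2.58 and 2.51, that of CHSY1 by 2.06, 2.41 and 2.47, and that of HAS2 by 1.29, 2.63 and 2.32 in pairs 1, 2 and 3. It exceeded that of its partner HAPLN1 by 1.02, 2.32 and 2.07, and that of VCAN by 0.30, 0.73 and 0.65. Between 5 h and 24 h the excess over UGDH was 2.46, 2.30 and 2.35. Each excess is above 0 in 3 of 3 pairs, and the smallest exact two-sided sign-flip p for 3 pairs is 0.25. A shift of a whole array cancels in these values.

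Around the 6 genes, 11 lists of 144 further genes of proteoglycan and glycosaminoglycan metabolism were followed, of which 77 had a probe set above the filter. At 24 h 4 of the 77 rose and 5 fell, 11.7% beside 8.61% of all tested probe sets. Those that rose include LYVE1, below the filter's intensity in control, and those that fell include CHST2, below it at 24 h. With the replicate block 20 rose and 16 fell, 46.8% beside 35.8%. These shares of all tested probe sets, 8.61% without the block and 35.8% with it, are the background for the 24 h counts of each list below. The median change of the 77 was 0.033. At 5 h, 0 of 77 were called in limma without the block, and 2 rose and 3 fell with it, 6.49% beside 5.86% of all tested probe sets. With each array centred on its median, 2 rose and 3 fell at 24 h, and the count was 2 to 13 with 1 array left out. It was 2 to 5 without control replicate 2 or 3, 5 h replicate 1, or 24 h replicate 1, 2 or 3.

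Supply of sugar nucleotides and sulfate had 11 of 17 genes tested. Among these 1 rose and 3 fell at 24 h (UGDH included), beside 8.61% of all tested probe sets called in either direction. With the block 1 rose and 4 fell, beside 35.8%. GNPNAT1 and PGM3, consecutive enzymes of the UDP-N-acetylglucosamine route that feeds hyaluronan and keratan sulfate, both fell. GFPT1 and UAP1 of the same route did not, at 0.24 (limma adjusted p = 0.90, and 0.44 with the block) and 0.32 (adjusted p = 0.43, and 0.056 with the block). GNPNAT1 was at 553.5, 531.3 and 688 in control and at 314.2, 310.1 and 402.6 at 24 h (-0.76 ± 0.18, limma adjusted p = 0.036). PGM3 was at 722.8, 611.1 and 743.9 and then 475, 455 and 477.5 (-0.54 ± 0.13, adjusted p = 0.042). PAPSS1, which makes the sulfate donor PAPS, rose by 0.44 ± 0.11 (adjusted p = 0.043), from a mean of 2091 to 2838. UGP2, the enzyme just before UGDH, stood at 0.029 ± 0.096 (adjusted p = 0.93).

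In linker and chondroitin polymerisation 6 of 13 genes were tested, and CHSY1 was the 1 that fell at 24 h, with 0 that rose. With the block CHPF (0.41) and CSGALNACT2 (0.46) rose, and B3GAT3 (-0.52) fell with CHSY1. CHPF is the partner subunit of CHSY1 in chain extension, so the members of this list did not move 1 way. XYLT2, which starts chains as XYLT1 does, stood at -0.60 at 5 h (limma adjusted p = 0.34, and 0.050 with the block) and at -0.16 at 24 h (adjusted p = 0.70).

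Sulfation of chondroitin and dermatan had 6 of 12 genes tested, with UST, a uronyl 2-sulfotransferase, lower at 24 h by 0.80 ± 0.18 (limma adjusted p = 0.030). Its values were 331.4, 313.1 and 390.1 in control and 181.9, 177 and 211.8 at 24 h. A second UST probe set gave -0.77 (adjusted p = 0.19). BPNT2, the brightest gene of this list, stood at -0.36 ± 0.12 (adjusted p = 0.099, and 0.011 with the block). In keratan sulfate synthesis 7 of 10 genes were tested, and the sulfotransferase CHST2 fell by 1.22 ± 0.19 (adjusted p = 0.0095). Its intensity was only 34.2 to 50.9 in control and 5.5 to 13.1 at 24 h, below the filter's intensity of 17.1, so its size is not measured well. With the block B4GALT1 (-0.70, adjusted p = 0.011) and CHST1 (-0.48, adjusted p = 0.016) also fell, 3 of 7 in all. Over all tested probe sets 17.5% were lower with the block. B4GALT4, the brightest there, stood at -0.22 (adjusted p = 0.76).

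In heparan sulfate synthesis 1 of 7 tested genes rose at 24 h, the 6-O-sulfotransferase HS6ST1, by 2.45 ± 0.44 (limma adjusted p = 0.015). It was at 830.7, 438.3 and 872 in control, at 1350, 587.1 and 2228 at 5 h and at 3372, 3753.5 and 4336 at 24 h, so the 24 h arrays lay above all others. EXT2, a heparan polymerase, was at 0.45 ± 0.16 (adjusted p = 0.12, and 0.0031 with the block). EXT1 of the same list went the other way, at -0.36 ± 0.16 (adjusted p = 0.22, and 0.041 with the block). With the block 3 of the 7 rose and 1 fell, beside 18.3% higher and 17.5% lower over all tested probe sets. Among 9 tested proteoglycan cores of other kinds, the glypican GPC4 fell by 1.03 ± 0.18 (adjusted p = 0.014), from a mean of 601.5 to 288. GPC1 was at 0.78 ± 0.37 and CSPG4, a transmembrane chondroitin sulfate proteoglycan, at -1.02 ± 0.40. Neither was called without the block (adjusted p = 0.25 and 0.17), and with it GPC1 rose and CSPG4 fell (adjusted p = 0.00027 for each).

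Among hyaluronan genes 10 of 14 were tested. Besides HAS2, the hyaluronan receptor LYVE1 was called, as higher (limma adjusted p = 0.0095). Its intensity was 14.1, 2.0 and 7.4 in control and 92.6, 119.7 and 124.6 at 24 h. The control arrays were all below the filter's intensity of 17.1 and the probe set passed the filter through the salt groups, so no size of change is given. A second probe set was below it in control too, at 15.5, 5.3 and 7.3, and at 55.5, 60.9 and 35.8 at 24 h. CD44, the main cell-surface hyaluronan receptor, stood at -0.011 ± 0.10 (adjusted p = 0.98). The hyaluronidase HYAL1 was at 1.19 ± 0.43 (adjusted p = 0.13, and 0.0015 with the block). HAS3 had a mean of 26.7 in control and was not called (-0.24, adjusted p = 0.55), and HAS1 was below the filter. Of the 8 tested hyaluronan-binding proteoglycans and link proteins 0 were called, and with the block ACAN and VCAN rose and HAPLN1 fell.

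On the side of breakdown, 8 of 14 lysosomal enzymes were tested, and HEXA, a subunit of beta-hexosaminidase, rose by 0.82 ± 0.19 (limma adjusted p = 0.036), from 278.2, 175.3 and 210 to 449.6, 354.9 and 386.7. The list's median was 0.67. With the block 6 of the 8 rose and 0 fell, beside 18.3% higher and 17.5% lower over all tested probe sets, among them GUSB, the brightest (0.43 ± 0.12, adjusted p = 0.060, and 0.0073 with the block). Of 5 tested genes among proteases that cut aggrecan and their inhibitor, 0 were called at 24 h without the block, beside 8.61% of all tested probe sets. With the block 2 rose and 2 fell, beside 35.8%. ADAMTS4, a protease that cuts aggrecan, was at 143.3, 210.5 and 270.3 in control, at 302.1, 248.3 and 356.2 at 5 h and at 103.1, 107.8 and 98.2 at 24 h. Its 24 h change was -0.87 ± 0.24 (adjusted p = 0.055, and 0.0047 with the block), and it was lower than at 5 h by 1.40 (adjusted p = 0.0082). TIMP3, which inhibits aggrecanases, stood at 0.73 ± 0.21 (adjusted p = 0.067, and 0.015 with the block). The aggrecanase ADAMTS5, dim at a mean of 28.9 in control, also rose with the block (0.57 ± 0.27, limma adjusted p = 0.26, and 0.019 with the block). MMP3, also on the list, fell with it (-0.62 ± 0.39, adjusted p = 0.41, and 0.026 with the block), so the members of this list did not move 1 way. ADAMTS1 stood at 1.21 ± 0.35 at 5 h (adjusted p = 0.27, and 0.054 with the block) and -0.645 ± 0.35 at 24 h (adjusted p = 0.32, and 0.14 with the block). Its change from 5 h to 24 h was -1.855 (adjusted p = 0.012).

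Of 16 listed regulators of aggrecan transcription, 7 were tested. At 24 h 0 of the 7 were called without the block, beside 8.61% of all tested probe sets. With the block 2 rose and 1 fell, beside 35.8%. CCN2, a connective tissue growth factor and the brightest of the 7, stood at -0.74 at 5 h (limma adjusted p = 0.18, and 0.013 with the block) and -0.047 at 24 h. SOX9 and NFAT5, the transcription factors of cartilage matrix genes and of osmotic stress, had no probe set of their own in the annotation and were not analysed here.

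**Figure D5:**
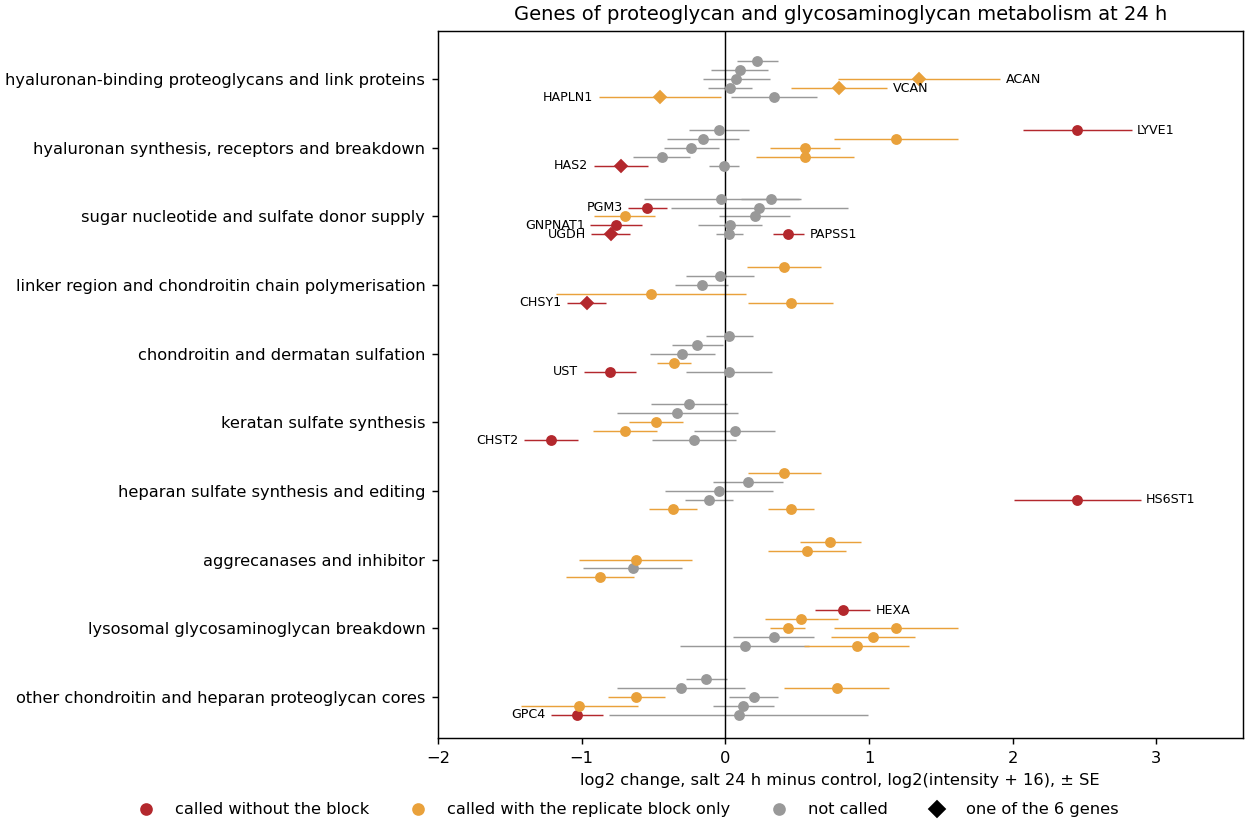
Change at 24 h against control, log2(intensity + 16) ± SE, of the genes above the filter in 10 lists of proteoglycan and glycosaminoglycan metabolism; diamonds are the 6 genes, red is called without the block, orange only with the replicate block, grey neither. UGDH, CHSY1, HAS2, GNPNAT1, PGM3, UST, CHST2 and GPC4 are red on the left, and LYVE1, HS6ST1, PAPSS1 and HEXA red on the right. LYVE1 in control and CHST2 at 24 h were below the filter's intensity, so the sizes drawn for them are not measured well.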

How the data were processed

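The 9 columns of deposited intensities, 1 for each array, were used. Per the submitters' processing notes the authors made them with PLIER in Affymetrix Expression Console, with versions, settings and any normalization between arrays not given in the sources used here. Control probe sets (112) were left out. Values were transformed as log2(intensity + 16), which understates changes of dim probe sets, and probe sets with a mean under the 25th percentile (an intensity near 17.1) were dropped, leaving 18012. Group means over all 9 arrays were fitted with limma 3.58.1 in R 4.3.3 (eBayes with an intensity trend); the block fit adds the replicate number. The fits were tried on simulated data with known changes. A culture effect was simulated only for the block fit, and large spreads were capped. The trial therefore does not show how the fit without the block behaves when cultures differ. The pairing comes from the labels' numbers and from the correlations between same-numbered arrays given in the report, 0.56 to 0.90. How far these exceed the correlations of the other pairs is partly fixed by the centring on group means. A gene was represented by its brightest single-symbol probe set; symbols came from the platform annotation, and 13263 of 13292 single-symbol probe sets matched a current gene table by number, changing 0 symbols.

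Named genes were all members, those called without the block in each list (up to 6), the brightest of each list, and the 5 nearest in pattern to ACAN and CHSY1; other genes of the lists were named after their values were seen. The members and lists were chosen with earlier results of these data known. Alternatives were the pseudocount, the filter, scaling, the block, the arrays fitted, the trend, the probe set rule and leaving out arrays. A planned search of promoter letters was not run, and sequences were not used here.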

Additional observations from a re-analysis of the deposited data

Results flagged for a closer look

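Without the block, the change against control differed between 5 h and 24 h for 3 genes, by limma's test of 24 h minus 5 h. The shared control drops out of that test. On the brightest probe sets the difference was -0.96 for HAS2 (adjusted p = 0.013), -0.91 for UGDH (adjusted p = 0.0053) and -0.53 for CHSY1 (adjusted p = 0.035), lower at 24 h in 3 of 3 pairs for each. The third HAS2 probe set did not fall, at 0.069 (adjusted p = 0.96), with pairs of 0.384, -0.811 and 0.633. With the block all 6 genes were called, ACAN among them (1.46, adjusted p = 0.00020). At 5 h the brightest HAS2 probe set lay above control in 3 of 3 pairs, whereas the third HAS2 probe set lay below it in 3 of 3. UGDH lay above control at 5 h in pairs 1 and 3 and below it in pair 2 (-0.089). The brightest CHSY1 probe set was already lower at 5 h in 3 of 3 pairs.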

How the results depend on the processing

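Under the replicate block, 6 of the 6 genes were called at 24 h against control and 6 at 24 h against 5 h, where 3 were called in each without it. The added refits of the block without the arrays of 1 replicate number, chosen after seeing the data, called 6, 5 and 5 genes (without number 1, 2 and 3) in each of these, and 1 at 5 h (CHSY1, without number 2). With 1 array left out of the unblocked fit the count was 1 to 3 in both, lowest without control replicate 2 at 24 h and without 5 h replicate 1 for 24 h minus 5 h, and 0 at 5 h. Among the 77 pathway genes the block called 36 at 24 h and 5 at 5 h, median centring called 5 at 24 h, and leaving out 1 array called 2 to 13 and 0 to 1. At 5 h changes that were called in no fit of all 9 arrays turned sign: HAPLN1 was 0.005 with median centring, HAS2 -0.20 for the mean of its probe sets, and ACAN 0.22, UGDH -0.005 (both without number 1) and VCAN -0.014 (without number 3) in the added refits. With 1 array left out, 5 h changes ran from -0.65 to 0.39 for ACAN, -0.18 to 0.36 for VCAN, -0.032 to 0.19 for UGDH and -0.35 to 0.23 for HAPLN1, and 24 h minus 5 h of HAPLN1, which was called only with the block, from -0.68 to 0.043 (without 24 h replicate 2). The causes were not tested. Median centring moved 24 h minus 5 h by 0.15 over all probe sets. Among the 6 genes, no change called without the block turned sign in these alternatives; the pathway genes were followed by counts only. Dim probe sets limit what can be said of CHST2, LYVE1, HAS1 and HAS3.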

Other observations

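Genes whose pattern over the 9 arrays was nearest to that of ACAN were looked up among 7782 other genes, by the root mean square difference of log2 values after each gene was centred on its own mean. The nearest was PRELP, a leucine-rich proteoglycan of cartilage matrix, at 0.23 log2 units, with 3694, 2423.5 and 923.4 in control and 6265, 4635 and 2193 at 24 h. PLXDC2 (0.26), RHBDD2 (0.29), GRN (0.30) and ABHD8 (0.30) came next, and the array numbered 3 was the lowest of each group in all 5, as it was for ACAN. The nearest to CHSY1 were FZD4 (0.10), PUDP (0.11), ALG6 (0.13), ORC4 (0.15) and RRP9 (0.16), with FZD4 at 71.6, 55.1 and 71.8 in control and 21.8, 19.4 and 27.9 at 24 h. These genes were picked for likeness, so their agreement is no evidence.

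VCAN and HAPLN1 are next to each other among protein-coding genes of the RefSeq table for assembly ARS-UCD2.0. The brightest VCAN probe set stood at 0.79 at 24 h and HAPLN1 at -0.46, and with the block VCAN rose and HAPLN1 fell. XRCC4, the gene on the far side of VCAN, fell by 1.51 ± 0.19 (limma adjusted p = 0.0050). HAPLN3, next to ACAN, stood at 0.224 ± 0.145 (adjusted p = 0.43).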
